A study of Mus musculus with 11 samples.

Results

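The endocytic receptors of the LDL receptor family and of lipoprotein uptake were followed as 8 genes of the 55359 counted in sorted retinal endothelial cells: Lrp1, Vldlr, Lrp8, Lrp4 and Lrp10 as receptors with LDL receptor repeats, Lrpap1 as their chaperone, and Scarb1 and Cd36 as class B scavenger receptors. The set was chosen by measured values, because Lrp1 was lower in the mice injected with oncostatin M (OSM), and the other members were added for their function. All 8 genes were found in the count files, and each had reads in at least 1 mouse. Because the contrast of OSM with PBS chose the set, its values are given below as a description, while the differences between litters and the test of treatment by litter were not used in the choice.

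The cells came from C57BL/6 mice (C57BL/6J in the study's methods) in the oxygen-induced retinopathy (OIR) model, in which pups kept in high oxygen return to room air and new pathological vessels then grow on the retina. At P12, 5 mice received OSM (0.5 µL at 100 ng/µL) and 6 mice received 0.5 µL of PBS by intravitreal injection, and at P17 CD31+CD45- cells were sorted from the pooled retinas of each mouse. Mice 1, 2, 5, 6 and 9 received OSM and mice 3, 4, 7, 8, 10 and 11 received PBS. Mice 1 to 4 formed litter 1, mice 5 to 8 litter 2 and mice 9 to 11 litter 3, each litter being a separate OIR run. The mice carried no engineered allele according to the labels. The study's methods mention PBS in contralateral eyes and do not say whether that holds for the sequenced mice, so a library may or may not hold cells from a PBS-treated eye.

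Receptors of the LDL receptor family carry ligand-binding repeats outside the cell and short cytoplasmic tails that bind endocytic adaptors, so that bound lipoproteins, proteases and matrix proteins are taken up through coated pits and released in endosomes. LRP1 is a large member with many ligands, among them apolipoprotein E, protease-inhibitor complexes and thrombospondins, and it is well known in pericytes, smooth muscle cells, hepatocytes, neurons and macrophages. In endothelium, SR-BI (Scarb1) and CD36 bind lipoproteins or fatty acids by another fold, and in the retina VLDLR is known for restraining abnormal vessel growth.

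The libraries held 26697990 to 56033479 reads on genes (median 32500202), with 28471487 to 56033479 in OSM and 26697990 to 35151928 in PBS mice. Endothelial markers (Pecam1, Cdh5, Cldn5 and 11 others) summed to 18221 to 24832 CPM (reads scaled to a common library total) in the 11 mice, and none of the 14 was at 0 in all mice. Macrophage and microglia markers summed to 0.286 to 14.8 CPM in OSM mice (median 1.04) and 0.317 to 19.3 CPM in PBS mice (median 3.72). Ptprc (CD45) was near 0. Mural cell markers were present, and rod markers ranged from 229 to 5954 CPM, with the highest sum in OSM mouse 5. Blood cell markers summed to 368 to 1143 CPM in OSM and 126 to 617 CPM in PBS mice. In such bulk samples fewer cells of a type and less RNA per cell cannot be told apart.

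The upstream window of Lrp1 is shown because Lrp1 is the gene whose difference chose the set and OSM signals through STAT transcription factors. The 250 bases lie on chromosome 10 of GRCm39, chr10:127457018-127457267, minus strand, directly before the annotated start of the gene. They were read from the RefSeq promoter table (GRCm38.p6) and placed by an exact match in GRCm39. Capitals mark the only match, on either strand, to the STAT motif TTCNNNGAA.
Lrp1: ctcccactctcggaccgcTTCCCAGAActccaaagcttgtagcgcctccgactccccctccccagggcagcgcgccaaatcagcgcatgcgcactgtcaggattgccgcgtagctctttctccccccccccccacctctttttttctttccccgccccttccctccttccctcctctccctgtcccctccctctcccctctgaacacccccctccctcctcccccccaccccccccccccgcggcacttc
The match starts 232 bases before the start of the gene. The window holds 67.2% G or C, against a median of 52.4% over the 32851 RefSeq windows of 250 bases. Its 13 CpG dinucleotides lay above the median of 6 and between the quartiles of 2 and 16 of these windows. TTCNNNGAA occurred in 7.02% of these windows, so its presence in 1 of them sets Lrp1 apart only as far as that share goes. A single match to the GC box GGGCGG was found 99 bases before the start (32.7% of all windows), and none to the sterol element TCACNCCAC (1.05% of all windows), both searched on both strands. RefSeq windows matched 6 of the 8 genes, with 9 windows in all; Lrp4 and Scarb1 had none. None of the windows of Vldlr, Lrp8, Lrp10, Lrpap1 and Cd36 held TTCNNNGAA. These matches describe letters in a window and say nothing of binding.

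The 8 genes spanned a wide range of expression. Levels are CPM per kilobase of merged exons, which allows genes of different length to be compared. Lrp10 had the highest median level at 82.4 (58.8 to 92.7 in the 11 mice). Scarb1 followed at 57.5 (41.1 to 74.2) and Lrp8 at 47.0 (32.2 to 56.7). Lrpap1 stood at 29.4 (24.9 to 41.6). These 4 genes lay between the 90.8 and 97.1 percentiles of the 13742 genes tested, so the well expressed receptors of these cells were LRP10, SR-BI and the apolipoprotein E receptor 2 encoded by Lrp8. Each of the 4 exceeded the next in all 11 mice, with mean log2 ratios of 0.56 ± 0.25 (SD) for Lrp10 over Scarb1, 0.26 ± 0.18 for Scarb1 over Lrp8 and 0.59 ± 0.31 for Lrp8 over Lrpap1.

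A gap followed. Lrpap1 exceeded Lrp4 by a log2 ratio of 3.86 ± 0.48, and Lrp4 had a median level of 2.22 (0.968 to 3.19). Lrp1 had a median level of 0.750 (0.0210 to 2.53), at the 23.4 percentile of tested genes. Lrp4 exceeded Lrp1 in 8 of 11 mice with a log2 ratio of 1.98 ± 2.29, a difference smaller than its spread. Vldlr was at 0.0337 (0 to 0.434) and Cd36 was at 0 in 7 of 11 mice. Lrp1 exceeded Vldlr in 10 of 11 mice, and Vldlr exceeded Cd36 in 7 of 11. With the length of the canonical transcript in place of the merged exons, Scarb1 came first at 234, before Lrp10 at 91.2 and Lrp8 at 77.2, because its annotated exons merge to 10346 bases against 2539 in the canonical transcript. The other positions stayed, with Lrpap1 at 56.5, Lrp4 at 2.94 and Lrp1 at 1.03.

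**Figure D1:**
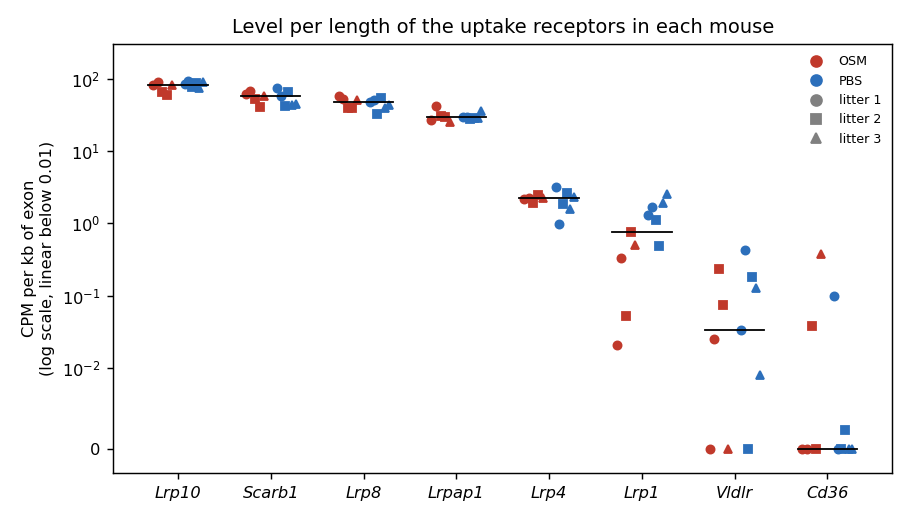
Level of each of the 8 genes in each mouse, as CPM per kilobase of merged exons, on a log axis that is linear below 0.01; red marks OSM and blue PBS mice, the symbol marks the litter and the bar the median of 11 mice. Lrp10, Scarb1, Lrp8 and Lrpap1 lie close together between 24.9 and 92.7, whereas Lrp1 spreads from 0.0210 to 2.53 and Vldlr and Cd36 reach 0.

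Lrp1 (ENSMUSG00000040249) encodes LDL receptor related protein 1 and lies on chromosome 10 at 127374012 to 127457017 of GRCm39, on the minus strand, with 20494 bases of merged exons. Values below are normalized counts, that is reads scaled to a common library size. In litter 1 the OSM mice had 14.6 and 232 and the PBS mice 898 and 1189. In litter 2 the OSM mice had 37.2 and 523 and the PBS mice 780 and 337. In litter 3 the OSM mouse had 349 and the PBS mice 1327 and 1764. All 5 OSM mice were below the PBS median of 1044, and 3 of 5 were below the lowest PBS mouse. The groups overlapped, because PBS mouse 8 at 337 was below OSM mice 6 and 9.

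The mean was 231 ± 214 (SD, n = 5) in OSM and 1049 ± 492 (SD, n = 6) in PBS mice, a log2 fold change of -2.07 with an SE of 0.80 and a 95% interval of -3.84 to -0.29. Within litters 1, 2 and 3 the log2 difference of the means was -3.08, -1.0 and -2.15. Raw reads ran from 15 in OSM mouse 1 to 1666 in PBS mouse 11, a normalized ratio of 121, and the coefficient of variation (CV) was 83.8%. The 4 well expressed genes of the set, Lrp8, Lrp10, Lrpap1 and Scarb1, had a CV of 13.2% to 20.5%. Without OSM mouse 1 the log2 fold change was -1.64, without OSM mouse 6 it was -2.98, and without litters 1, 2 and 3 it was -1.43, -2.69 and -2.03. Without mouse 5, whose library had the most rod transcripts, it was -1.88.

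**Figure D2:**
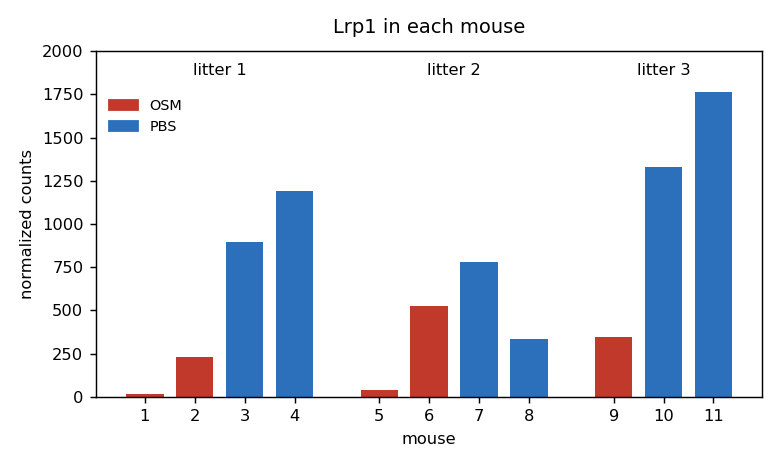
Normalized counts of Lrp1 in each mouse, 1 bar per mouse grouped by litter, OSM in red and PBS in blue. In litters 1 and 3 every OSM bar is below every PBS bar, whereas in litter 2 PBS mouse 8 at 337 is below OSM mouse 6 at 523.

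Markers of mural cells and of fibroblasts were lower along with Lrp1, and most tested blood cell and rod markers were higher. Pericytes and smooth muscle cells adjoin the endothelium and are known to express Lrp1. Of 12 markers, 11 were lower and 1 was higher in OSM mice, and the median of their log2 fold changes was -0.75. Among all 13742 tested genes, 7092 were lower and 6650 higher. None of the 12 was called by edgeR. Pdgfrb and Higd1b (2 of the 12) were lower with an unadjusted p under 0.05, as were 2.18% of all tested genes. With all genes kept, edgeR called 4 of the 12, Rgs5, Acta2, Higd1b and Cspg4, and 0.225% of 28940 genes. DESeq2 called none of the 12, and 0.763% of 22014 genes. Mcam, which endothelial cells also express, was the most abundant of the 12 and the 1 that was higher. The other 11 summed to 424 to 884 CPM in OSM mice (median 506) and 333 to 1806 CPM in PBS mice (median 973), and none was at 0 in all mice. Of 7 fibroblast markers, the 4 tested were all lower in the fit, none was called by edgeR, 1 (Col1a2) had an unadjusted p under 0.05, and the median of their log2 fold changes was -0.88. The 7 summed to 68.7 to 162 CPM in OSM mice (median 121) and 53.9 to 293 CPM in PBS mice (median 199), and 1 of them, Dpt, was at 0 in all mice. Of 9 blood cell markers, 7 were tested, 6 higher and 1 lower in OSM mice (median log2 fold change 1.10). An unadjusted p under 0.05 was reached by 5, all higher, and by 4.17% of all tested genes in either direction. Of the 9, edgeR called none, or 5 with all genes kept, and DESeq2 called 4. Of 12 rod markers, 8 were higher and 4 lower (median 0.56). Of the 12, edgeR called none, or 2 with all genes kept, and DESeq2 called none.

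PBS mouse 8, the PBS mouse with the least Lrp1, also had the lowest mural sum at 333 CPM, and PBS mouse 11, with the most Lrp1, had the highest at 1806. Across the 11 mice, log2 levels of Lrp1 and of this sum had a Pearson r of 0.58 and a Spearman rho of 0.78. Without mice 8 and 11, the farthest from the median sum, r was 0.61 (n = 9). In the 6 PBS mice alone r was 0.88, in the 5 OSM mice alone it was 0.17, and after removal of litter and treatment means it was 0.29 (n = 11). OSM mice 1 and 5 lay far below the others in Lrp1 at mural sums of 506 and 658 CPM. The points share libraries and sorts, and the gate on CD31 is meant to leave out cells without CD31, such as pericytes, smooth muscle cells and fibroblasts. The part of mural or fibroblast RNA in the Lrp1 values was not tested.

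**Figure D3:**
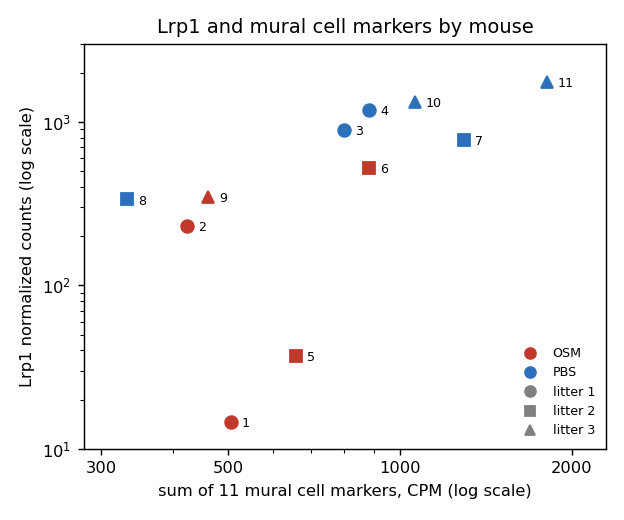
Normalized counts of Lrp1 against the summed CPM of 11 mural cell markers (Mcam left out), both on log axes, 1 point per mouse with its number, OSM in red and PBS in blue, symbols by litter. PBS mice 8 and 11 mark the ends at 333 and 1806 CPM, and OSM mice 1 and 5 lie below the band of the other mice.

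The Lrp1 message is long, with 14906 bases in the canonical transcript and 89 exons, and poly(A)-primed cDNA covers long messages unevenly. Among the 148 tested genes with canonical transcripts over 12 kb, 62.8% were lower in OSM mice and their median log2 fold change was -0.11, against 43.9% and 0.06 for those under 1 kb. The part of length in the Lrp1 value was not tested. An opposite-strand long noncoding RNA, Gm67009, overlaps 6.2% of the merged exon length and is not among the genes counted. Since the library does not mark strand, reads from it may have been counted as Lrp1.

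Vldlr (ENSMUSG00000024924, chromosome 19, 27193862 to 27231631, plus strand), which encodes the very low density lipoprotein receptor and binds reelin as well as lipoproteins, was barely detected. OSM mice 1, 2, 5, 6 and 9 had 0, 9, 71, 22 and 0 raw reads. PBS mice 3, 4, 7, 8, 10 and 11 had 9, 139, 0, 64, 45 and 3. The groups overlapped throughout, and both held mice at 0, where a count of 0 allows up to 2.92, 1.83 and 3.15 normalized counts in mice 1, 9 and 7. The mean was 23.5 ± 34.7 (SD, n = 5) in OSM and 45.4 ± 57.0 (SD, n = 6) in PBS mice, and the log2 fold change was -2.79 with an SE of 2.47 and an interval from -8.24 to 2.67. The log2 difference was -4.19 in litter 1 and 0.79 in litter 2, and the OSM mouse of litter 3 was at 0. The estimate ran from -3.86 without PBS mouse 7 to -1.01 without PBS mouse 4, and was -1.79 without OSM mouse 1 and -1.63 without OSM mouse 9. It was -0.73, -5.0 and -1.62 without litters 1, 2 and 3, and -0.95 without a litter term. At this depth no difference in Vldlr was detectable.

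Lrp8 (ENSMUSG00000028613, chromosome 4, 107659066 to 107734038, plus strand) encodes apolipoprotein E receptor 2, which also binds reelin. The OSM mice 1, 2, 5, 6 and 9 had 25170, 23499, 17523, 17154 and 22192 normalized counts. The PBS mice ran from 14283 over a median of 20004 to 24057. The ranges overlapped almost fully, and the highest and the lowest mouse belonged to opposite groups. The means were 21107 ± 3601 (SD, n = 5) and 19622 ± 3545 (SD, n = 6), with a log2 fold change of 0.09 (SE 0.13, 95% interval -0.20 to 0.37). Among the LDL receptor relatives of the set, its level per length was second to that of Lrp10.

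Lrp4 (ENSMUSG00000027253, chromosome 2, 91287797 to 91344248, plus strand), the agrin receptor of the neuromuscular synapse and a modulator of Wnt signaling, had 789, 810, 706, 903 and 828 normalized counts in OSM mice 1, 2, 5, 6 and 9. The PBS mice ran from 354 over a median of 767 to 1165. The OSM mice lay within the range of the PBS mice, whose lowest and highest, mice 4 and 3, were littermates. The means were 807 ± 71.1 (SD, n = 5) and 767 ± 289 (SD, n = 6), and the log2 fold change was 0.07 (SE 0.29, 95% interval -0.58 to 0.72). Without PBS mouse 4 it was -0.11 and without PBS mouse 3 it was 0.36.

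Lrp10 (ENSMUSG00000022175, chromosome 14, 54701489 to 54709889, plus strand), a receptor of the trans-Golgi network and endosomes with sorting motifs in its tail, had 15819, 17145, 12611, 11422 and 16011 normalized counts in OSM mice 1, 2, 5, 6 and 9. The PBS mice ran from 14606 over a median of 16811 to 18009. The 2 OSM mice of litter 2 were below every PBS mouse and the other 3 were within their range. The means were 14602 ± 2450 (SD, n = 5) and 16358 ± 1402 (SD, n = 6), and the log2 fold change was -0.17 (SE 0.093, 95% interval -0.38 to 0.03). Within litters it was -0.07, -0.40 and 0.01, so it was farthest from 0 in litter 2. Gm10366, a counted gene on the opposite strand, overlaps 10.2% of its merged exons, and strand cannot tell the reads there apart.

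Lrpap1 (ENSMUSG00000029103, chromosome 5, 35248837 to 35263892, minus strand) encodes the receptor-associated protein, a chaperone of the endoplasmic reticulum that keeps ligands off LRP1 and its relatives during their synthesis. OSM mice 1, 2, 5, 6 and 9 had 5310, 8136, 5860, 5756 and 4865 normalized counts. The PBS mice ran from 5475 over a median of 5690 to 7055. The lowest and the highest of all mice were OSM mice, and the PBS mice lay between them. The means were 5986 ± 1266 (SD, n = 5) and 5876 ± 588 (SD, n = 6), with a log2 fold change of 0.02 (SE 0.14, 95% interval -0.28 to 0.32). In OSM mouse 1 the chaperone was just below the lowest PBS mouse, and in mouse 5 it was within the PBS range. Lrp1 was far below every PBS mouse in both.

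Scarb1 (ENSMUSG00000037936, chromosome 5, 125353547 to 125418176, minus strand) encodes SR-BI, the high density lipoprotein receptor, which also carries LDL across endothelium. OSM mice 1, 2, 5, 6 and 9 had 21253, 23624, 18529, 14467 and 20266 normalized counts. The PBS mice ran from 14733 over a median of 17946 to 26113. Only OSM mouse 6 was outside the range of the PBS mice, just below it. The means were 19628 ± 3423 (SD, n = 5) and 19123 ± 4696 (SD, n = 6), and the log2 fold change was 0.02 (SE 0.14, 95% interval -0.29 to 0.32).

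Cd36 (ENSMUSG00000002944, chromosome 5, 17986432 to 18094067, minus strand) encodes a scavenger receptor and fatty acid translocase of capillary endothelium, adipocytes, platelets and macrophages. Raw reads were 0 in 7 of 11 mice. OSM mice 5 and 9 had 14 and 269, and PBS mice 3 and 8 had 33 and 1. Nearly all reads therefore came from 1 OSM mouse, and 3 OSM and 4 PBS mice had none. A count of 0 allows up to 1.83 to 3.89 normalized counts, depending on the library. Cd36 did not pass the filter on low counts and was not tested, and no treatment difference was detectable at this depth.

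Of the 8 genes, 7 passed the filter on low counts, and 4 of these were higher and 3 lower in OSM mice, and their median log2 fold change was 0.02 against -0.01 over all 13742 tested genes. No member was called by the edgeR quasi-likelihood test at an adjusted p under 0.05, and neither was any other gene (0%). At an unadjusted p under 0.05, 1 of the 7, Lrp1, was among the genes passing in either direction (4.17% of all tested genes, 573) and among those lower (2.18%, 300). With every gene that had a read kept, edgeR called 1 member, again Lrp1, and 0.225% of 28940 genes. DESeq2 called no member and 0.763% of 22014 genes. For no member was every OSM mouse below every PBS mouse, which held for 0.262% of tested genes. Since Lrp1 chose the set, nothing is read from these counts, and the call of Lrp1 depended on the filter: its adjusted p ran from 4.87e-04 without a filter to 1 over the alternatives tried.

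**Figure D4:**
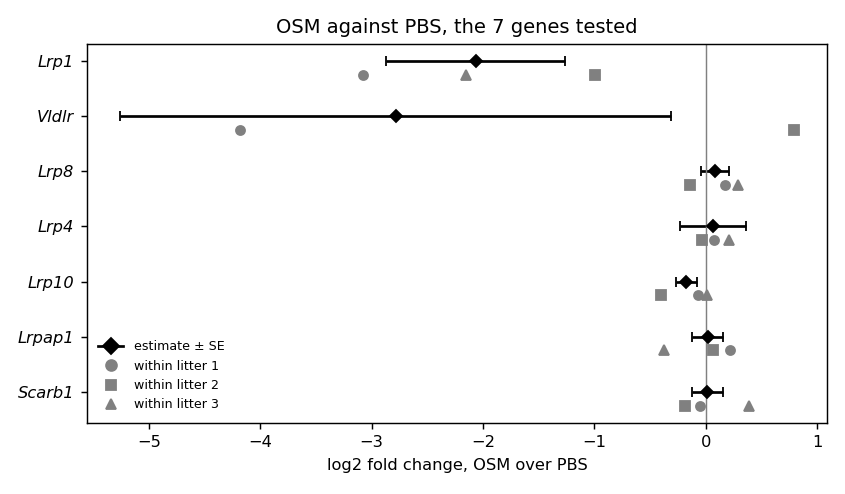
log2 fold change of OSM over PBS for the 7 tested genes: diamonds and bars give the edgeR estimate with litter as a term ± SE, and grey symbols the log2 difference of the means within each litter. Litter 3 is not drawn for Vldlr, because its OSM mouse was at 0. Lrp1 lies at -2.07 with all 3 litters below 0, Vldlr has an SE of 2.47, and the other 5 lie between -0.17 and 0.09.

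The comparison of the 3 litters asked how far the members vary between OIR runs, apart from the treatment. No member was called for litter in edgeR, in which 0.102% of tested genes were (14 genes). The lowest adjusted p-values of the edgeR test were 0.453 for Scarb1, 0.492 for Lrp10 and 0.612 for Lrp8, and Lrp1 had 0.915. No member had an unadjusted p under 0.05, which 1565 of the 13742 tested genes had. With only 7 members tested, this says little about them. The DESeq2 likelihood ratio test called 995 genes and none of the 7, whose lowest adjusted p was 0.268 (Scarb1). Scarb1 had means of 22811, 17629 and 17040 normalized counts in litters 1, 2 and 3, and Lrp8 had 22940, 18254 and 19498. Both means were highest in litter 1, but neither gene was called, with unadjusted p of 0.055 for Scarb1 and 0.128 for Lrp8 in the edgeR test. Without PBS mouse 8, which had the highest Lrp8 value of the PBS mice, the adjusted p of Lrp8 was 0.0458, and it ran up to 0.846 without OSM mouse 1. Lrp1 had 584, 419 and 1147, with litter 3 holding 2 PBS mice and 1 OSM mouse.

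The difference between treatments did not differ detectably between litters for any member. In the edgeR test of treatment by litter, the adjusted p was lowest for Lrp10 at 0.763 and was 0.925 for Lrp1, and no gene was called (0%). An unadjusted p under 0.05 was reached by 1051 genes and by no member. Each litter held 1 or 2 mice of a treatment, and DESeq2 was not run for this test.

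Among the members, Lrp8, Scarb1 and Lrp10 varied together across the 11 mice, with Pearson r of log2 CPM of 0.80 for Lrp8 and Scarb1, 0.63 for Lrp8 and Lrp10 and 0.57 for Lrp10 and Scarb1. After removal of litter and treatment means the values were 0.72, 0.73 and 0.60. Lrp1 had r of -0.35 to 0.25 with the other members, none of them near the values among those 3 genes. The profiles come from the same 11 libraries and are described without a test.

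The 5 genes whose profile over the 11 mice was most like that of Lrp1 were Golga4 (r = 0.94), Aph1a (0.91), Ppat (0.89), Npl (0.88) and Prpf39 (0.87), out of 10896 genes with a mean of at least 100 normalized counts. Golga4 encodes a golgin of the trans-Golgi network and Aph1a a subunit of gamma-secretase, the protease that cleaves LRP1 within the membrane. Only Golga4 and Aph1a had r above 0.9. After removal of litter and treatment means their r with Lrp1 was 0.99 and 0.89. The log2 CPM of Lrp1 was -1.03 and 0.20 in OSM mice 1 and 5 and 2.78 to 5.70 in the others, so r leans on these mice. Log2 fold changes were -0.28 (SE 0.24) for Golga4, -0.21 (SE 0.18) for Aph1a and -0.73 (SE 0.21) for Ppat. Npl had -1.37 (SE 1.42) and Prpf39 -0.38 (SE 0.50). Because the 5 genes were picked for likeness to Lrp1, which was lower in OSM mice, their negative signs follow from the choice. Nothing is read from them. Golga4 had 1205 ± 400 (SD, n = 5) normalized counts in OSM and 1504 ± 228 (SD, n = 6) in PBS mice.

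Relatives of these receptors outside the set were read from a list of 11 genes, of which 8 were tested. Of these, 7 were higher and 1 was lower in OSM mice (median log2 fold change 0.31), and 2 had an unadjusted p under 0.05, both higher. None was called by edgeR. Ldlrad4, an inhibitor of TGF-β signaling that carries an LDL receptor class A domain, had 2930 ± 218 (SD, n = 5) normalized counts in OSM and 2176 ± 291 (SD, n = 6) in PBS mice. Its lowest OSM mouse, at 2658, was above its highest PBS mouse, at 2602, a separation that held for 0.226% of tested genes (31), and the differences within litters were 0.27, 0.49 and 0.57. Its log2 fold change was 0.43 (SE 0.11), the edgeR adjusted p was 1 and the DESeq2 adjusted p was 3.13e-05. Ldlrad3, a relative with LDL receptor class A repeats, was at 5230 ± 1140 and 3926 ± 1053, with a log2 fold change of 0.35 (SE 0.12) and overlapping groups.

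Of the other scavenger receptors, 6 of 11 were tested and 4 were lower and 2 higher, none with an unadjusted p under 0.05. The most abundant per length were Scarf1, with a log2 fold change of 0.01 (SE 0.11), and Stab1, a hyaluronan and modified LDL receptor of sinusoidal endothelium, with -0.27 (SE 0.13).

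Genes that act on the receptors showed no called change in edgeR. Of 14 adaptors and regulators of receptor stability, 11 were tested, 6 higher and 5 lower, none with an unadjusted p under 0.05. The most abundant per length, Cav1, the coat protein of caveolae, and Acvrl1, which binds LDL for transcytosis as well as BMP ligands, had log2 fold changes of 0.16 (SE 0.12) and -0.08 (SE 0.099). All 8 genes of receptor proteolysis were tested, 2 higher and 6 lower. Adam10, which sheds LRP1 from the cell surface, was at -0.03 (SE 0.12), and Ncstn, of gamma-secretase, at 0.14 (SE 0.10). Adam17, another sheddase, was the 1 with an unadjusted p under 0.05, with 3819 ± 1193 (SD, n = 5) and 4806 ± 1112 (SD, n = 6) normalized counts and a log2 fold change of -0.40 (SE 0.17).

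Ligands and lipases gave 20 tested of 24 genes, 8 higher and 12 lower (median log2 fold change -0.13). Pltp, which transfers phospholipids between lipoproteins, had the highest level of the list at 363 CPM per kilobase and a log2 fold change of 0.17 (SE 0.12), and Calr, a chaperone that also signals through LRP1 at the surface, was at 241 and 0.13 (SE 0.073). Serpine2 (protease nexin 1), whose complexes with proteases are cleared by LRP1, had 2374 ± 522 (SD, n = 5) normalized counts in OSM and 4375 ± 1901 (SD, n = 6) in PBS mice. All 5 OSM mice were below its PBS median and 3 below its lowest PBS mouse, with differences of -0.95, -0.38 and -1.25 in litters 1, 2 and 3. Its log2 fold change was -0.81 (SE 0.24), with an edgeR adjusted p of 1, a DESeq2 adjusted p of 0.128 and an edgeR adjusted p of 0.00275 without a filter on low counts. It was the only gene of the list with an unadjusted p under 0.05.

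The genes that cells adjust to their sterol supply were near 0. All 25 genes of cholesterol synthesis and its SREBP control were tested, 15 higher and 10 lower, none with an unadjusted p under 0.05, and their median log2 fold change was 0.04. Ebp, a sterol isomerase, was at 0.06 (SE 0.14) and Srebf1, a transcription factor of lipid synthesis, at 0.17 (SE 0.21). Of the genes of sterol export and lysosomal sterol handling, 12 of 13 were tested, 4 higher and 8 lower, with a median of -0.080. Lipa, the lysosomal acid lipase that frees cholesterol from LDL, was at 0.15 (SE 0.13) and Npc2, which passes it on to the lysosomal membrane, at 0.06 (SE 0.11). Of the genes of fatty acid uptake and handling, 14 of 16 were tested, 3 higher and 11 lower, with a median of -0.13. Cpt1a, the entry of fatty acids into mitochondrial oxidation, was at -0.12 (SE 0.14) and Plin2, a lipid droplet coat protein, at 0.18 (SE 0.11). None of these 2 lists' genes had an unadjusted p under 0.05 either, beside 6650 genes higher and 7092 lower among all those tested.

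**Figure D5:**
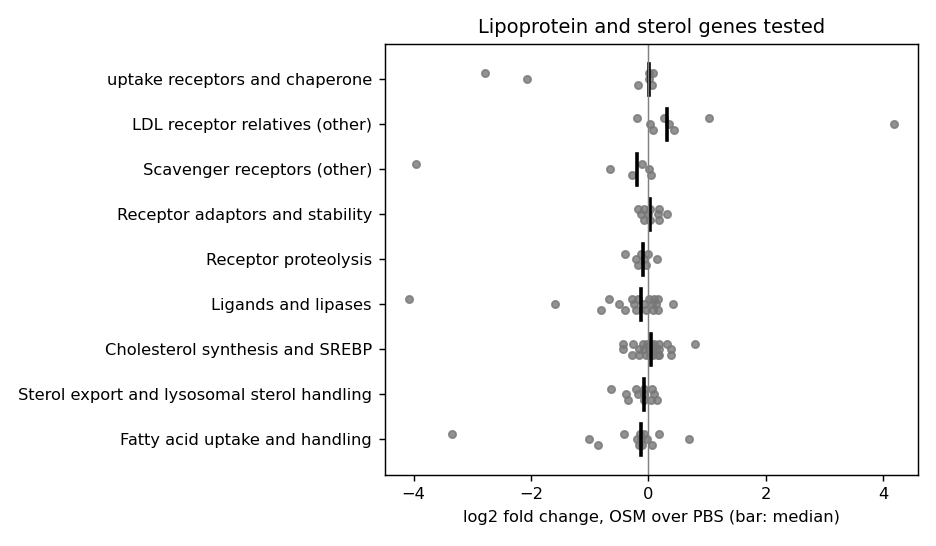
log2 fold change of OSM over PBS for the tested genes of the uptake receptor set and of 8 related lists, 1 point per gene with the list's median as a bar. The medians lie between -0.19 for the other scavenger receptors and 0.31 for the other LDL receptor relatives, and the points farthest from 0 are genes with few reads.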

How the data were processed

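RNA of sorted retinal endothelial cells from 11 mice was measured as poly(A)-primed, PCR-amplified cDNA sequenced in single reads without molecular identifiers. The authors used STAR for alignment to GRCm39 and featureCounts for counts on GENCODE genes. The deposited values are raw counts per gene, 1 table per mouse, without normalization, for 55359 genes, 54749 of which are in the annotation used here (vM39). Treatment came from the sample titles and litter from the design text of the series. The column headings for mice 10 and 11 read M11_PBS and M12_PBS; both are PBS mice of litter 3, and each table was assigned by its own sample record. No pair of libraries agreed within sampling noise (lowest chi-square per gene 72.5).

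Counts were analysed in R 4.3.3 with edgeR 4.0.16 (TMM factors 0.972 to 1.03, filterByExpr on the treatment groups with a count minimum of 10, leaving 13742 genes, robust quasi-likelihood F test with litter and treatment as terms, Benjamini-Hochberg adjustment, threshold 0.05). limma 3.58.1 was loaded with edgeR. DESeq2 1.42.0 was an alternative. Further alternatives were DESeq2's size factors, a fit without litter, other filters on low counts, no robust estimation, libraries thinned to the smallest, and each mouse or litter left out. A filter on the design matrix and canonical transcript lengths were added after the data were seen. Normalized counts are reads scaled to the mean effective library size, CPM used a prior count of 2 where logged, and a count of 0 was given a limit of 3 reads, which covers counting error only. P-values measure the spread between mice, each of which is a separate animal. The scripts were tested on simulated data.

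The members and lists were chosen with earlier results of these data known. From each list the text names the 2 genes with the highest level per length and up to 2 with the lowest unadjusted p under 0.05 and 1 sign in all litters, and for likeness to Lrp1 the 5 genes with the highest Pearson r. The mural cell and fibroblast markers named were picked once their values were known.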

Additional observations from a re-analysis of the deposited data

Results flagged for a closer look

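In 3 of the 16 groups of mice examined (8 genes in OSM and in PBS mice), 1 mouse stood apart from the others by Dixon's criterion. For normally distributed values, chance alone meets it in about 1 of 20 groups. Lrpap1 was at 7054.5 normalized counts in PBS mouse 11, above 5475 to 5771 in the other 5 PBS mice. Cd36 was at 164 normalized counts in OSM mouse 9, where the other 4 OSM mice had 0 to 16.3. Cd36 was at 42.8 normalized counts in PBS mouse 3, where the other 5 PBS mice had 0 to 0.980. Both Cd36 values come from few reads, 269 and 33, in groups where most mice had 0, so the rate for normally distributed values does not hold there.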

How the results depend on the processing

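The number of genes called for OSM against PBS, 0 in the comparison reported, was 65 without a filter on low counts and 168 with DESeq2, and 0 when any 1 mouse was left out. For litter, 14 became 625 without a filter, 995 with the DESeq2 likelihood ratio test and 0 to 69 when 1 mouse was left out (69 without PBS mouse 8). For treatment by litter, 0 became 305 without a filter. The causes were not tested.

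Of 252 comparisons of a member's value with an alternative, 237 kept their side of the threshold and, for fold changes, their direction. The 252 comprise 22 alternatives for each tested member's fold change and 14 for its adjusted p for litter, which has no direction. Among the fold changes, 13 changed sign. The sign changes were those of Lrp4 (-0.11 to 0.36 with 1 mouse left out), Lrpap1 (-0.11 to 0.15, and -0.11 without litter 1 and -0.011 without litter 2) and Scarb1 (-0.11 to 0.14, and -0.11 without litter 3), whose estimates with all mice lay within their SE of 0. With 1 mouse left out, Lrp1 stayed between -2.98 and -1.64, Vldlr between -3.86 and -1.01, Lrp8 between 0.021 and 0.24 and Lrp10 between -0.23 and -0.11. No paired analysis was possible because mouse numbers are not shared between the treatments, and litter was a term instead. Depth limits Vldlr and Cd36.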
